A study of Mus musculus with 5 samples.

Results

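The adult library of mouse hindlimb muscle held 20501 chromatin peaks that shared no base with a peak called in any of the other 4 libraries, out of 81124 peaks called in the adult. They were chosen by measured values: no overlap with a peak of another library, and at least 20 counts over adult nuclei of 400 to 25000 RNA molecules. Of the 20504 adult peaks without overlap, 3 stayed outside with 17 to 19 counts, and 6 of those kept had fewer than 22. At the other edge of the rule, 42 of the chosen peaks lay within 10 bp of a peak of another library, 5 of them end to end, while 43 of the remaining adult peaks overlapped one by at most 10 bp. They made up 25.3% of adult peaks with at least 20 counts and are called adult-only peaks here. The name refers to peak calls: the other libraries hold no counts for these regions, so accessibility there was not measured.

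RNA and open chromatin had been measured in the same nuclei (10x Multiome) of hindlimb muscle. WT mice of the strain C57bl6n were taken at E14.5, E18.5 and P5 and as adults, and Cacna1s-/- fetuses, which lack the pore subunit of the voltage sensor of muscle, at E18.5. Each group was 1 library, pooled from 56 hindlimbs for E14.5, 14 for E18.5, 8 for P5, 4 for the adult and 26 for Cacna1s-/-. Nuclei were sorted by PCM1, which marks myonuclei, and equal volumes of the positive and the negative fraction were combined, so shares of nuclei do not mirror the tissue. With 1 library per group there was no replicate error and no test. Intervals are exact 95% intervals that cover counting error only, and a value is called higher or lower where it differs at least 2-fold.

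Open chromatin marks promoters, where transcription starts, and distal elements such as enhancers, which act on genes from introns or from between genes. Promoters are often open in many cell types, whereas distal elements vary more with cell type and state. In skeletal muscle, enhancers are bound by Mef2 and by myogenic factors at E-boxes. Adult fibers also respond to hormones through nuclear receptors, among them the glucocorticoid receptor, which binds a palindrome and raises Fkbp5 in many tissues.

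Sequences of 9 adult-only peaks are shown because the results return to them: those at Plin3, Tns1, Nctc1 and Ppp1r3c hold a glucocorticoid palindrome, those at Sorbs3, Pvalb, Etl4 and Asb5 were among the most accessible or the most restricted to myonuclei, and the one in Anks1b was nearly restricted to other nuclei. Each is the central 300 bp of the peak on the plus strand of mm10, 5′ to 3′, from the RefSeq sequence of GRCm38.p6. Capitals mark matches on either strand to the glucocorticoid palindrome (GNACA and TGTNC with 3 bases between them), the Mef2 core (TATTTTTA or TATTTATA), the E-box (CAGCTG or CAGGTG), the monomer site of nuclear receptors (AAGGTCA) and the site of PAR bZIP factors (TTATGTAA, TTATGCAA or TTACGTAA).
Plin3, chr17:56292936-56293235: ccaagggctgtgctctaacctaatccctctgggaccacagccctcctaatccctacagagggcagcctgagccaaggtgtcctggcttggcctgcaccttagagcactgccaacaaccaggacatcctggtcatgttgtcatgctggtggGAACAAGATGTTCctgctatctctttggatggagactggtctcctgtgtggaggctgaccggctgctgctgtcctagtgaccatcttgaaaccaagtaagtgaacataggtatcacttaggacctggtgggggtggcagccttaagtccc
Tns1, chr1:74014663-74014962: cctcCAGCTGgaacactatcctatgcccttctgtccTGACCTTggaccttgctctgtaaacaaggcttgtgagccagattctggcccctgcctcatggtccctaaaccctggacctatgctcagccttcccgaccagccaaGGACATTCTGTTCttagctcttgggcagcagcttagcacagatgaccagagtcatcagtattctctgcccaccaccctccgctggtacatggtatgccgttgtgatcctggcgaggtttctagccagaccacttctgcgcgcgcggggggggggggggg
Nctc1, chr7:142558587-142558886: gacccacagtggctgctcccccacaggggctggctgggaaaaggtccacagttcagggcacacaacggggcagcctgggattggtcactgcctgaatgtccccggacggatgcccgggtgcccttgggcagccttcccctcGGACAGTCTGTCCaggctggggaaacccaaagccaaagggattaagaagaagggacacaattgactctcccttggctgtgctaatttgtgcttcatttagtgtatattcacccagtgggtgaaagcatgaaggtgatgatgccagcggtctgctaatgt
Ppp1r3c, chr19:36749093-36749392: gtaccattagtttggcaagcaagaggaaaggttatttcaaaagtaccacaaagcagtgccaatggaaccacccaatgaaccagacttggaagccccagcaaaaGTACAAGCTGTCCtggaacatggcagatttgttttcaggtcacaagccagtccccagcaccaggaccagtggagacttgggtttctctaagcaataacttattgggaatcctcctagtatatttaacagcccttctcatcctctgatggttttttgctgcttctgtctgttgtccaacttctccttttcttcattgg
Sorbs3, chr14:70208322-70208621: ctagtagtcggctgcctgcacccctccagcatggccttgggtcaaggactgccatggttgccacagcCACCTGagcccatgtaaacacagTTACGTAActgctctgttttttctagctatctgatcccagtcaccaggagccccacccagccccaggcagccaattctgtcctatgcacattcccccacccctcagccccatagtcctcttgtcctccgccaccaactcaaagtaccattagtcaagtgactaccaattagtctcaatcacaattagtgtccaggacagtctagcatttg
Pvalb, chr15:78189802-78190101: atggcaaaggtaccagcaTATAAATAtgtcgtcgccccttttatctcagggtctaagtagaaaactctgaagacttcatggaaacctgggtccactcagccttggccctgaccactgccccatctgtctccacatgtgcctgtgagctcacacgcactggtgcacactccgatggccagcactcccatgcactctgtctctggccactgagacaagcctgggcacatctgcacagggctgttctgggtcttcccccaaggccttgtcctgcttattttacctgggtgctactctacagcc
Etl4, chr2:20764627-20764926: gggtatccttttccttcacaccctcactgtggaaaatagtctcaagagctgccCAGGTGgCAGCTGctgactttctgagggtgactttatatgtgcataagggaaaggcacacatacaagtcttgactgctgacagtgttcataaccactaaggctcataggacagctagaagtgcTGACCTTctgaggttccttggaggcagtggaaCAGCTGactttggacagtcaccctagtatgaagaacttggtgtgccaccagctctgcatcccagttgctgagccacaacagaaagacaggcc
Asb5, chr8:54581573-54581872: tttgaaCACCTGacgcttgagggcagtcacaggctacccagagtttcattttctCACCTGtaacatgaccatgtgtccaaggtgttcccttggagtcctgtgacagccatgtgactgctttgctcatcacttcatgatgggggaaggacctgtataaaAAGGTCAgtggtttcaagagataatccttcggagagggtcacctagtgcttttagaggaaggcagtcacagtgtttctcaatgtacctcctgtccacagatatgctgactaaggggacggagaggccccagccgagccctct
Anks1b, chr10:90273467-90273766: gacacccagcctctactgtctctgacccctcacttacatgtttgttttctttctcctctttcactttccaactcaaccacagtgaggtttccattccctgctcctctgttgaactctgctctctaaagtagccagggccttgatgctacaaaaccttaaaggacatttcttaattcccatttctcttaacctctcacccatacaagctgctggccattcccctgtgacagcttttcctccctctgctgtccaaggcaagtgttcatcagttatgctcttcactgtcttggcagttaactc
The palindromes read GAACAAGATGTTC at Plin3, GGACATTCTGTTC at Tns1, GGACAGTCTGTCC at Nctc1 and GTACAAGCTGTCC at Ppp1r3c. The Pvalb window holds 1 Mef2 core, the Etl4 window 3 E-boxes, the Sorbs3 window 1 PAR bZIP site, and the Anks1b window none of these motifs. A match describes letters and is not a measurement of binding.

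The adult library also differed from the others in makeup and depth. Myonuclei, defined as nuclei with at least 4% of their RNA molecules from Ttn, Neb, Trdn and Ryr1, were 85.9% of adult nuclei (4393 of 5117), against 1.59% of nuclei in the E14.5 library, 17.4% in the E18.5, 35.5% in the P5 and 8.64% in the Cacna1s-/- library. The adult had 48510096 peak counts, the other libraries 23592784 to 44317624. Peaks were called in each library on all its nuclei together, and the part of makeup and depth in which peaks were adult-only was not tested. In adult myonuclei and other nuclei, the 10 myonuclear markers summed to RNA levels of 105659 and 4254 CPM (counts per 1000000 counts of the group), and the 10 mesenchymal markers to 174 and 4318. The myonuclear markers include Ttn, Neb, Trdn and Ryr1, which define the split, so their difference is in part set by it. Only 71 adult nuclei lay between 3% and 5%, but more did in each other library. The E14.5 library held 490 such nuclei and 77 myonuclei, and the Cacna1s-/- library 450 and 279. The E18.5 library held 674 and 746, the P5 library 437 and 1332. Other nuclei of these libraries had 8880.5 to 13158.2 CPM of the myonuclear markers. Whether they include myonuclei below the limit was not tested. Shares of myonuclei, and the comparison of adult with P5 myonuclei, thus depend on the limit. Between 29 and 47 barcodes of the adult recurred in each other library, and doublets were not removed.

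Adult-only peaks were weaker than the other adult peaks and more often lay in introns, away from promoters. Their median was 161 counts over all adult nuclei (range 20 to 3101), against 304 for the 60618 adult peaks that overlapped a peak of another library. Among adult peaks under 100 counts 43.9% were adult-only, and among those with at least 800 counts 3.98%. Widths were alike, with medians of 875 and 887 bp. A peak of another library was rarely far off: the median gap was 3750 bp, 10.5% of adult-only peaks had one within 500 bp, and 7.73% had none within 20000 bp.

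Introns held 60.2% of adult-only peaks and 43.6% of the other adult peaks, and stretches between genes held 31.1% and 38.5%. UTRs held 2.75% and 10.7%. Of adult-only peaks 15.3% (3137) lay within 1000 bp of the span of starts that the files give for a gene, against 33.7% of the other adult peaks, with median distances of 16193 and 8671.5 bp. Spans of genes with several starts can cover much of a gene. Counted to single transcript starts, 5.19% of adult-only peaks and 26.8% of the other adult peaks lay within 1000 bp. The order held in each band of counts, for example 27.4% and 70.0% near a span among peaks with at least 800 counts. The peak windows had a median GC content of 48.7%, against 52.3%, and 14.6% repeat-masked bases, against 9.56%.

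Adult-only peaks were more often accessible mainly in myonuclei. In CPM of the peak counts of each group of nuclei, 10251 of them (50%) were at least 2-fold higher in myonuclei than in other nuclei, compared with 29.7% of all adult peaks and 22.8% of those shared with another library. At least 2-fold lower were 4836 (23.6%), close to the 25.7% of all adult peaks. The median ratio was 1.00 on the log2 scale for adult-only peaks and -0.11 for the other adult peaks. The difference was present in every band of counts, for example 67.8% against 23.4% higher in myonuclei among peaks of at least 200 and under 400 counts. Bands of counts do not match the makeup of the libraries in which peaks were called. Myonuclei were 85.9% of adult nuclei and 1.59% to 35.5% in the other libraries, and the part of this in the difference was not tested. Myonuclei had 38570090 peak counts and other nuclei 7241225, so ratios of weak peaks are imprecise. The counts depended on the limit for myonuclei. With 8% of molecules from the 4 core genes in place of 4%, 2432 adult-only peaks (11.9%) were higher and 4415 (21.5%) lower. Lower ones then outnumbered higher ones, where all adult peaks gave 6.28% and 21.7%. At that limit nuclei with 4% to 8% counted as other nuclei, and myonuclei held 64.8% of adult peak counts in place of 84.2%. The comparison was then in part between nuclei that the 4% limit calls myonuclei.

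**Figure D1:**
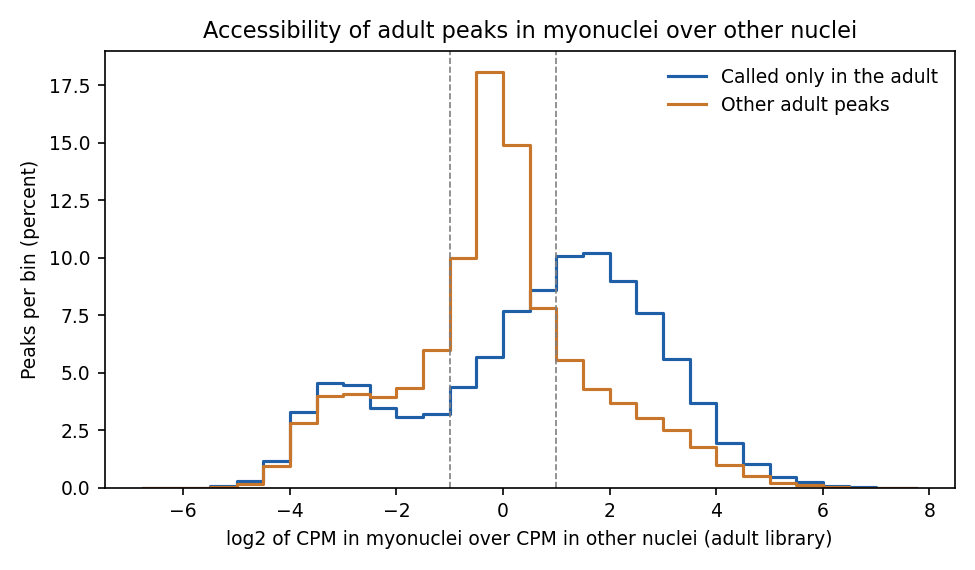
Distribution of the log2 ratio of CPM in adult myonuclei over CPM in other adult nuclei, as percent of peaks per bin, for the 20501 adult-only peaks and the 60618 other adult peaks, with dashed lines at 2-fold. The median is 1.00 for adult-only peaks and -0.11 for the other adult peaks, and 50% and 22.8% lie at or beyond 2-fold on the side of myonuclei.

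The share of a class's peak counts that fell in adult-only peaks ran with fiber type. It was 11.0% in 3508 Myh4 nuclei (the fastest fibers, type IIb), 10.0% in 532 Myh1 nuclei (IIx), 9.19% in 244 Myh2 nuclei (IIa) and 8.48% in 25 Myh7 nuclei (slow fibers), each named by the myosin heavy chain gene with most RNA, and no interval overlapped its neighbour's. The 118 adipocyte-like nuclei also had 11.0%. The 404 mesenchymal-like nuclei had 6.98%, and the other named classes, of 21 to 40 nuclei each, 4.89% to 6.03%. Myh4 nuclei were also the largest class among the nuclei from which the peaks were called, and the part of this in the order was not tested.

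**Figure D2:**
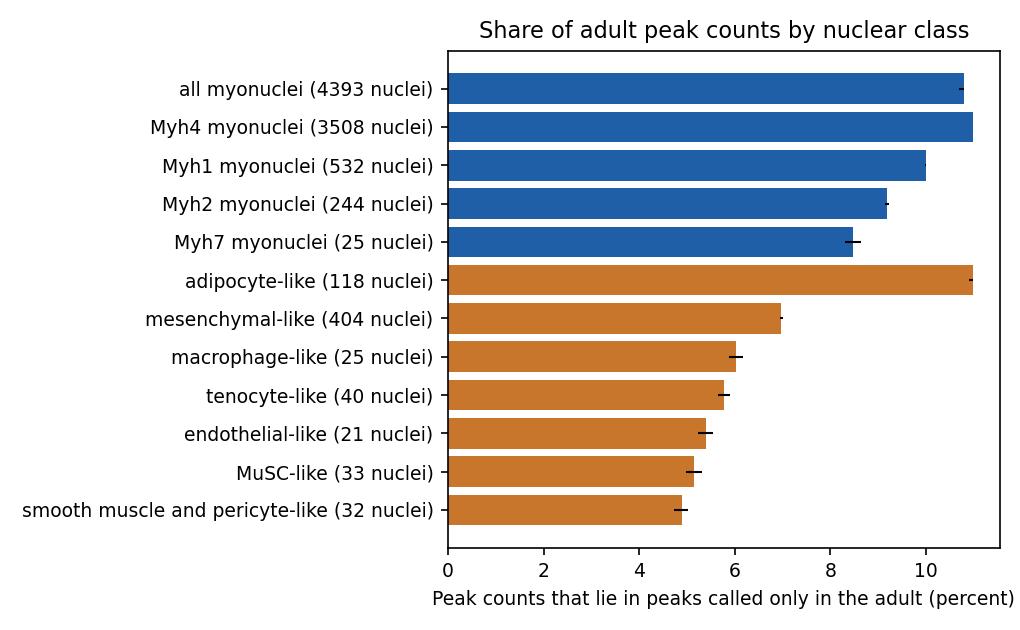
Percent of each adult class's peak counts that lie in adult-only peaks, with exact 95% intervals for counting error, for myonuclei by leading myosin gene (blue) and for classes of other nuclei (orange). Myh4 and adipocyte-like nuclei both have 11.0%, and the smooth muscle and pericyte-like nuclei have 4.89%.

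Counted peak by peak, the same counts gave the same order of fiber types. Among adult-only peaks with at least 40 counts over both groups, 5150 of 17482 (29.5%) were at least 2-fold lower in Myh2 than in Myh4 nuclei and 11.6% at least 2-fold higher, where all adult peaks gave 17.7% and 10.5%. In Myh1 against Myh4 nuclei, 21.5% of adult-only peaks were lower and 9.57% higher, where all adult peaks gave 11.4% and 7.09%. Myh4 nuclei had 29988649 peak counts, Myh1 nuclei 5294861 and Myh2 nuclei 2242643, so ratios of peaks near 40 counts are imprecise. Adult-only peaks were weaker, and the sets were not matched by counts. The part of this, and of the large share of Myh4 nuclei at peak calling, was not tested.

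Among other nuclei, the adipocyte-like class stood out. Adult-only peaks were at least 2-fold higher in adipocyte-like than in mesenchymal-like nuclei in 1750 of 4140 cases (42.3%), where all adult peaks gave 16.2%, and at least 2-fold lower in 30.8%, where all adult peaks gave 26.2%. Of the 3686 adult-only peaks on the side of other nuclei with at least 40 counts there, 39.7% had their highest CPM in the adipocyte-like class, against 14.2% of 13918 such peaks shared with another library. The 7 adipocyte markers summed to 14.2, 33.1, 168 and 1978.5 CPM of RNA in other nuclei over E14.5, E18.5, P5 and adult, and to 339 in Cacna1s-/- against 33.1 in WT at E18.5. Fewer nuclei of a type and less signal per nucleus cannot be told apart in these sums.

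The most accessible adult-only peak, chr17:28512460-28513376 in an intron of Fkbp5, the Hsp90 cochaperone induced by glucocorticoids, had 3101 counts. It was open in both groups, with 72.0 CPM in myonuclei and 44.7 CPM in other nuclei, a ratio of 1.61 (1.37 to 1.91). It lay 5 bp from a peak of another library, so its adult-only call rests on a peak border. Another adult-only peak of Fkbp5, chr17:28515406-28516315, lay 1180 bp from such a peak and had 29.2 CPM in myonuclei and 28.9 CPM in other nuclei. Fkbp5 RNA was at 0, 97.8, 10.7 and 39.5 CPM in myonuclei over E14.5, E18.5, P5 and adult, so adult myonuclei were not the highest. In other nuclei it was at 442 in the adult and 37.8 at P5.

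Of the 12 adult-only peaks with most counts, 10 were at least 2-fold higher in myonuclei, the exceptions being those at Fkbp5 and Klf11. The peak in the UTR of Klf11, a Krüppel-like factor, had 61.0 CPM in myonuclei and 54.1 CPM in other nuclei and lay 49 bp from a peak of another library. The peak chr7:142558284-142559190 at a start of Nctc1, a noncoding transcript near Igf2 and H19, had 73.7 CPM in myonuclei and 5.52 CPM in other nuclei, 13.3-fold higher (8.61 to 21.9). Nctc1 RNA was at 1084 CPM in adult and 78.3 in P5 myonuclei. The peak chr2:152903938-152904754, 6598 bp from Mylk2, the myosin light chain kinase of skeletal muscle, had 62.1 CPM in myonuclei and 2.90 CPM in other nuclei, 21.4-fold higher (11.8 to 43.8).

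The other 8 of these peaks were between 2.28- and 12-fold higher in myonuclei. Those in introns of Bsg, the chaperone of lactate transporters, of Atcayos and of Tpm2, beta-tropomyosin, reached 12-, 11.8- and 10.8-fold. RNA of Bsg was at 40.3 CPM in adult and 28.0 in P5 myonuclei, whereas Atcayos, at 329 and 1075.7, and Tpm2, at 160 and 262, were lower in the adult. The peak at Sorbs3, which encodes the adhesion adaptor vinexin, was 6.31-fold higher and the one at Plin3, a lipid droplet protein, 3.8-fold. Those of Gse1, Frmd8os and Tns1, the adhesion protein tensin, were 2.75-, 2.58- and 2.28-fold higher. Some were graded over fiber types: at Gse1 the level was 70.9 CPM in Myh4, 25.1 CPM in Myh1 and 18.3 CPM in Myh2 nuclei, and at Bsg 75.5, 43.6 and 29.9 CPM. At Nctc1 it was 73.6, 69.3 and 81.6 CPM.

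The 8 adult-only peaks with the highest ratio, among those with at least 100 counts, were nearly absent from other nuclei. A further 293 such peaks had 0 counts in other nuclei. Set against 6 counts there (3 fragments), they have only lower bounds, of 3.13 to 17.7, and so could not enter this ranking. The intron peak chr2:20764323-20765231 of Etl4 had 1029 counts in myonuclei and 1 in other nuclei, a ratio of 193 with a lower bound of 20.6. The peak chr15:78189602-78190301, 13936 bp from Pvalb, the calcium buffer of fast fibers, had 1221 counts in myonuclei and 2 in other nuclei, a ratio of 115 with a lower bound of 20.5. It was graded over fiber types, with 36.9 CPM in Myh4, 15.1 CPM in Myh1 and 3.12 CPM in Myh2 nuclei. The intron peak chr8:54581268-54582177 of Asb5, of a family of ubiquitin ligase adaptors, had 1734 counts in myonuclei and 3 in other nuclei, with 46.4, 50.4 and 23.2 CPM over these fiber types.

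The other 5, in introns of Ctnnbl1, Svil, Mical2 and Msra and near Lcor, had 489 to 598 counts in myonuclei and 1 in other nuclei each. The gradient was not always toward Myh4. The peak in Mical2, an actin oxidase, had 15.7 CPM in Myh4, 3.59 CPM in Myh1 and 2.23 CPM in Myh2 nuclei, whereas the one in Msra had 7.70, 31.0 and 36.1 CPM and the one in Svil, which encodes the actin binder supervillin, 13, 18.7 and 42.4 CPM.

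The 8 with the lowest ratio had 14 to 26 counts in myonuclei and 95 to 159 in other nuclei, and were 30.8- to 40.6-fold higher in other nuclei. They split by class. The intron peak chr10:90273165-90274068 of Anks1b had 63.1 CPM in adipocyte-like and 0.507 CPM in mesenchymal-like nuclei, and lay 96364 bp from the nearest peak of another library. The peaks nearest to Efemp1, the matrix protein fibulin-3, Ccer1 and Gm29456 were also higher in adipocyte-like nuclei, with 35.7 against 9.88, 32.4 against 15.7 and 47.4 against 17.5 CPM. The peak chr10:76648507-76649405, 24877 bp from Col6a2, a collagen VI chain, had the opposite order, with 6.14 CPM in adipocyte-like and 25.8 CPM in mesenchymal-like nuclei. So did the peaks in Cpne4 (0 and 23.1 CPM) and Cubn (7.81 and 23.1 CPM) and the one near Gm47408 (1.12 and 26.3 CPM).

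Adult-only peaks held glucocorticoid palindromes more often than other adult peaks, and E-boxes and CTCF letters less often. Motifs were searched on both strands of the central 300 bp of peaks over 1000 bp from a span of starts, 17361 adult-only peaks and 40160 others. The palindrome was in 3.02% of adult-only peaks (2.77% to 3.29%) and 1.36% of the others (1.25% to 1.48%), and in 1.86% of all of them. The shares were 3.10% and 1.57% on the side of myonuclei and 3.41% and 1.60% on the side of other nuclei, so they were alike on both sides. Among peaks with at least 800 counts, 39 of 422 adult-only peaks (9.24%) and 117 of 4193 others (2.79%) held it. It was more frequent in adult-only peaks in each of 4 bands of GC content on both sides.

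The full-length form of the palindrome (AGAACA and TGTTCT with 3 bases between them) was rare, in 16 adult-only peaks (0.0922%, 0.0527% to 0.150%) and 18 others (0.0448%, 0.0266% to 0.0708%), and these intervals overlap. Of the 12 peaks with most counts 3 held the shorter form, at Plin3, Tns1 and Nctc1. The windows of the 2 Fkbp5 peaks given above did not hold it.

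Other motifs of hormone and clock factors were also more frequent. On the side of myonuclei, the monomer site of nuclear receptors was in 11.8% of adult-only and 9.13% of the other peaks, and sites of PAR bZIP factors, those of Dbp, Tef and Hlf, in 3.06% and 1.88%. On the side of other nuclei PAR bZIP sites were in 5.71% and 3.33%. Over all distal adult peaks these motifs were in 8.08% and 2.79%.

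Less frequent were also E-boxes, CTCF letters and AP-1 sites. E-boxes, in 42.7% of all distal adult peaks, were in 40.9% of adult-only and 55.3% of the other peaks on the side of myonuclei. On the side of other nuclei they were in 26.7% and 38.2%. They were less frequent in adult-only peaks in each GC band. CTCF letters (AGGGGGC or CCACTAG), in 13.3% of all, were in 6.09% and 8.56% on the side of myonuclei, and AP-1 sites (TGAGTCA), in 9.72% of all, in 7.08% and 9.27%. Mef2 cores, in 7.77% of all, were in 13.1% and 14.1% on the side of myonuclei and in 3.58% and 3.30% on the side of other nuclei. Within bands of GC content on the side of myonuclei, the Mef2 shares were 26.2% and 26.4% below 45% GC, 12.4% and 17.2% at 45% to 50%, 5.45% and 10.3% at 50% to 55%, and 3.64% and 6.14% from 55%, so above 45% GC Mef2 cores were less frequent in adult-only peaks. The short Maf site (TGCTGA), in 28.2% of all, was in 31.9% and 31.1%.

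**Figure D3:**
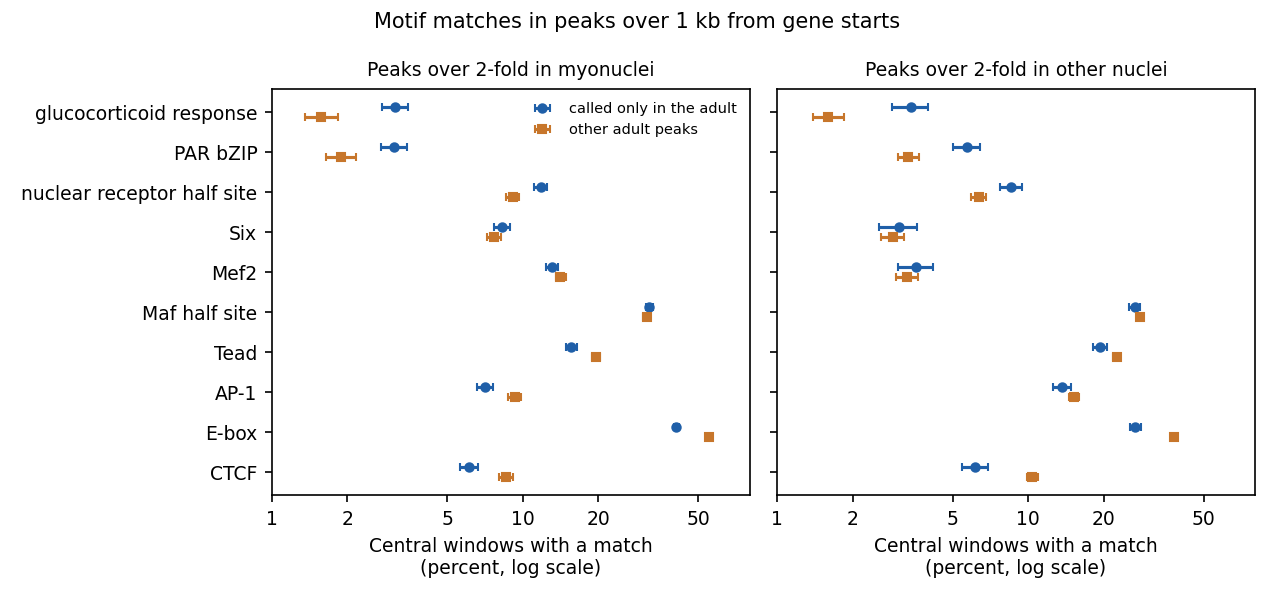
Percent of central 300 bp windows with a match (log axis) in adult-only peaks (blue) and other adult peaks (orange) over 1000 bp from gene starts, with exact 95% intervals, for peaks on the side of myonuclei (left) and of other nuclei (right). The glucocorticoid palindrome is at 3.10% and 1.57% on the left, and E-boxes are at 40.9% and 55.3%.

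Adult-only peaks were spread over many genes. They were nearest to 10040 genes, 31.1% of those with a listed start, and 5382 genes had exactly 1. Runs of at least 2 adult-only peaks with no other adult peak between them held 51.3% of them, and there were 191 runs of 5 or more. The share in runs that a random order would give is larger than the 25.3% of adult peaks that were adult-only. It was not computed, so 51.3% does not measure clustering. The 5 runs of 9 lay at Dock4, at Gm29927, around A930001M01Rik, at Pde8a, a cAMP phosphodiesterase, and at Syt17, a synaptotagmin, where all 9 over 96544 bp were on the side of myonuclei. Runs of 8 lay, among others, at Thrb, the thyroid hormone receptor beta, at Sgcd, a sarcoglycan of the fiber membrane, and at Ppp1r3a, the glycogen-targeting subunit of a muscle phosphatase, where all 8 were on the side of myonuclei.

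The genes nearest to most adult-only peaks were mostly large genes, and most of those named were not 2-fold higher in adult than in P5 myonuclei. Fgfr2, a growth factor receptor with a wide span of starts, had 58 of its 135 nearest adult peaks, but 5 of 11 by single starts, and lower RNA in the adult, 112 CPM against 235 at P5. Rora, a nuclear receptor of the clock, had 43 of 75 by either count, with RNA of 3949 in adult and 3952 in P5 myonuclei (ratio 0.999, 0.987 to 1.01). Pde4d, a cAMP phosphodiesterase, had 30 of 77, 28 of them on the side of myonuclei, and RNA of 7202 in adult and 2302 in P5 myonuclei (3.13-fold, 3.08 to 3.17). Zbtb20, Prkca and Ank3 had 23, 21 and 19, with RNA ratios of 1.14, 1.41 and 1.52, and Lpp had 19 and a ratio of 0.378. By single starts Zbtb20 had 13 and Prkca 8.

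Cdh4, or R-cadherin, had 18 and was 2.36-fold higher in adult myonuclei (1.90 to 2.95). At 17 stood Gm29927, Kcnma1 (13 by single starts), Rbfox1 and Bcor. Rbfox1, a splicing factor, had RNA of 6595 in adult and 3014 in P5 myonuclei, 2.19-fold higher. Kcnma1, a calcium-activated potassium channel, had 1894 and 1877, and Bcor, a corepressor, 68.1 and 69.6.

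Genes near adult-only peaks of myonuclei were more often higher in adult than in P5 myonuclei than genes as a whole, and whether more of them were higher or lower depended on the scaling and on the limit for myonuclei. RNA was summed over 4393 adult and 1332 P5 myonuclei (19723276 and 9212847 molecules). Of 11463 genes with at least 50 molecules in both sums together, 11.1% were at least 2-fold higher in the adult and 22.4% at least 2-fold lower, with a median log2 ratio of -0.13. The adult-only peaks on the side of myonuclei were nearest to 3531 of these genes, of which 555 (15.7%) were higher and 704 (19.9%) lower, with a median of -0.01. The other adult peaks of that side were nearest to 3891, of which 13.9% were higher and 26.4% lower. Relative to the median of all genes, 646 of the genes near adult-only peaks were higher and 625 lower, and with the limit of 8% for myonuclei 230 were higher (21.9%, all genes 16.9%) and 139 lower (13.2%, all genes 13.6%).

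The share of higher genes was larger where there were more adult-only peaks. It was 8.98% of genes with no adult-only peak of that side, 12.4% with 1, 16.4% with 2, 23.1% with 3 or 4, and 27.4% with 5 or more (21.7% to 33.7%, 62 of 226 genes). The share of lower genes ran the other way, at 23.4%, 21.9%, 18.3%, 17.3% and 13.7%. By number of other adult peaks of that side, the shares were 9.61%, 13.7%, 11.7%, 15.6% and 16.0% higher and 20.3%, 24.8%, 28.5%, 30.0% and 24.4% lower. Long genes have more peaks. Among genes of at least 100 kb, 15.9% of those with an adult-only peak of that side were higher and 22% lower. Those with only other adult peaks gave 10.5% and 47.9%, and those with neither 7.16% and 42.0%. In the same order, the shares were 14.2% and 24.5%, 8.10% and 31.2%, and 8.53% and 21.9% under 20 kb. From 20 to 100 kb they were 16.4% and 16.6%, 12.5% and 23.9%, and 8.82% and 15.3%. Compared with genes with neither, the share of lower genes was thus smaller only among genes of at least 100 kb.

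In other nuclei, more of the genes near adult-only peaks were higher than lower in the adult, and this turned with the limit for myonuclei. Of 12736 genes with at least 50 molecules over 724 adult and 2421 P5 nuclei together, 8.97% were at least 2-fold higher in the adult and 22.4% at least 2-fold lower. Of the 1713 genes nearest to adult-only peaks on the side of other nuclei, 365 (21.3%) were higher and 260 (15.2%) lower, and of the 4082 nearest to other adult peaks of that side 14.1% and 21.8%. With the limit of 8%, 223 (13.2%) were higher and 491 (29.2%) lower, where all genes gave 8.34% and 29.9%. These sums mix cell types in shares that differ between the adult and P5, which cannot be told apart from a change within a type. Among them, the myonuclear markers summed to 8880.5 CPM in other nuclei at P5 and 4253.9 CPM in the adult.

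**Figure D4:**
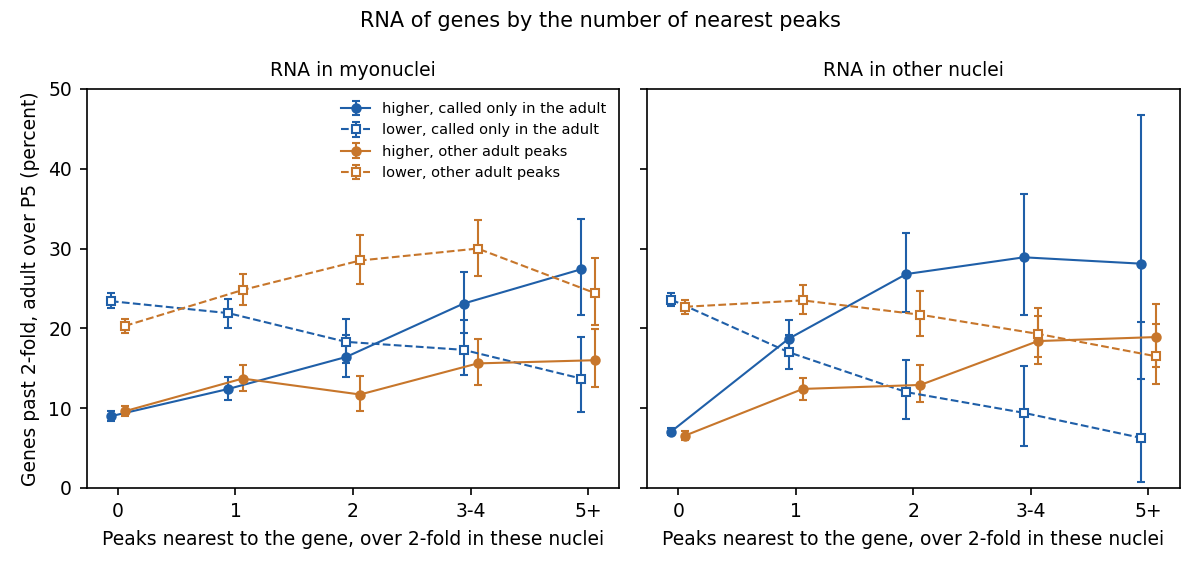
Percent of genes at least 2-fold higher (filled circles, solid lines) or lower (open squares, dashed lines) in adult than in P5 nuclei, by number of nearest adult-only peaks (blue) or other adult peaks (orange) on the side of the same nuclei, in myonuclei (left) and other nuclei (right), with exact 95% intervals. In myonuclei the share of higher genes is 27.4% with 5 or more adult-only peaks and 16.0% with 5 or more other adult peaks.

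The 10 genes near adult-only peaks of myonuclei with the highest adult over P5 ratio were low at E18.5 and P5, at no more than 6.15 CPM. At E14.5 they had 0 to 3 molecules in 77 myonuclei, and the upper limits of 12.3 to 29.2 CPM that this allows lie above the adult levels of Prima1, Slc6a9, Magix and Kcng4, at 7.15 to 9.99 CPM. Actr3b, a relative of the actin nucleator subunit Arp3, had 3.33, 1.15, 0.543 and 94.8 CPM in myonuclei over E14.5, E18.5, P5 and adult, 175-fold higher in the adult than at P5 (74.7 to 539), and 5 of its 11 nearest adult peaks were adult-only. Sorbs3 had 0, 1.15, 2.50 and 80.1, 32.1-fold higher (21.3 to 50.7), with 5 of 7. Tfcp2l1, a transcription factor, had 0, 0.192, 0.868 and 21.1, 24.3-fold higher (12.2 to 56.6), with 14 of 22, 13 of them on the side of myonuclei. Kcng4, a modifier subunit of potassium channels, had no molecule before the adult and 9.99 CPM there, at least 30.7-fold higher than 3 molecules at P5.

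The remaining 6 had between 1 and 18 molecules at P5. Arrdc2, an arrestin domain protein, had 52.7 CPM in adult and 1.30 in P5 myonuclei, and Ece1, the endothelin-converting enzyme, 68.3 and 1.95. Prima1, which anchors acetylcholinesterase, was 65.9-fold higher (11.6 to 2620), Slc6a9, a glycine transporter, 37.1-fold, Magix 33.9-fold and Cacna2d4, a calcium channel subunit, 27.8-fold. In Cacna1s-/- and WT E18.5 myonuclei, none of the 10 exceeded 5.66 and 6.15 CPM. Cacna1s, the targeted gene, had 0.754 in Cacna1s-/- and 180 in WT E18.5 myonuclei.

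The 6 with the lowest ratio were nearest, by gene starts, to an adult-only peak while their RNA was nearly gone. Myh8, the neonatal myosin heavy chain, had 672, 5067, 3600 and 0.406 CPM over E14.5, E18.5, P5 and adult. Its only nearest adult peak, chr11:67263196-67264105, lies 13019 bp away in the cluster of myosin genes, with 28.1 CPM in myonuclei and 1.66 CPM in other nuclei. This peak lies between the end of Myh4, at 67260446, and Myh8. The end of Myh4 is closer, but peaks were assigned by gene starts. Over fiber types the peak had 34.5 CPM in Myh4, 4.72 CPM in Myh1 and 1.78 CPM in Myh2 nuclei. Gatm, an enzyme of creatine synthesis, had 0.710 in adult and 260 in P5 myonuclei, Grip1, a scaffold protein, 0.862 and 123, and Tecrl 0.254 and 153. Adam23 had 0.456 and 75.2, and Tmem72 0.203 and 22.6.

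**Figure D5:**
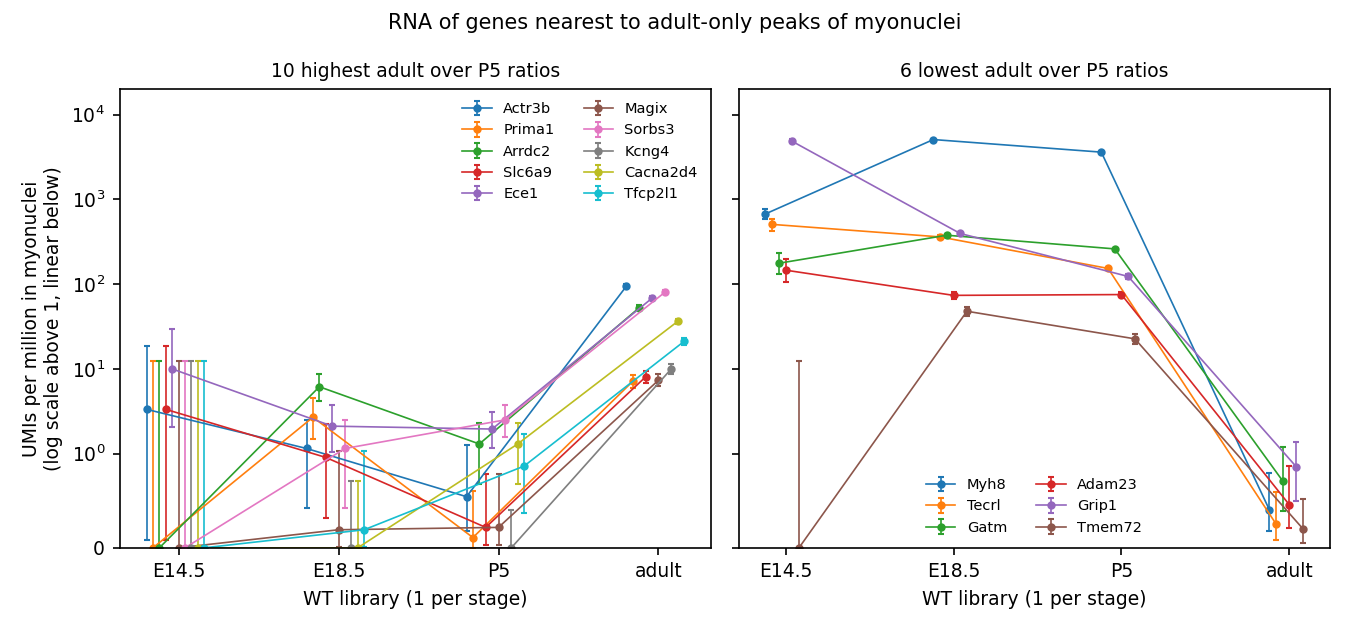
RNA in myonuclei of the WT libraries, in CPM of RNA molecules (UMIs) on an axis that is logarithmic above 1 and linear below, for the 10 genes with the highest (left) and the 6 with the lowest (right) adult over P5 ratio among genes nearest to adult-only peaks of myonuclei, with exact 95% intervals. Genes on the left reach 7.15 to 94.8 in the adult, and those on the right are at 0.203 to 0.862 there.

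In other nuclei, the highest ratios were mostly those of genes with RNA in adipocyte-like nuclei. Cyp2e1, a cytochrome P450, had 0, 0.0811, 0.152 and 289 CPM in other nuclei over E14.5, E18.5, P5 and adult, and in the adult 921 in adipocyte-like and 3.15 in mesenchymal-like nuclei. Its only adult peak was adult-only. Cidec, a lipid droplet protein and one of the markers that named the class, had 0.0454, 0.527, 10.6 and 543, and both its adult peaks were adult-only. Ankef1 and Chst1, a sulfotransferase, were 26.0- and 27.7-fold higher in the adult than at P5, with 1231 and 302 in adipocyte-like nuclei. Dpep1, a dipeptidase, was 33.8-fold higher, with 4.57 in adipocyte-like and 255 in mesenchymal-like nuclei. Lncpint, 34.8-fold higher, was broad, with 1349 in myonuclei and 1237 in mesenchymal-like nuclei. The lowest ratios belonged to Dlk1, a factor of progenitor cells, with 4.99 in adult and 647 in P5 other nuclei, to Kif23 and Melk, genes of dividing cells, and to Insyn2a, the last 3 with 1 or 2 molecules in the adult.

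Genes of carbohydrate use had a larger share of adult-only peaks than adult peaks as a whole, and genes of fast fibers a similar one. These gene lists were put together with earlier results of these data known. Of 21 genes of glycolysis and glycogen 16 were nearest to an adult-only peak, compared with 45.9% of all genes measured in adult and P5 myonuclei. They had 54 such peaks, 50 of them on the side of myonuclei, or 37.0% of their 146 adult peaks, where 25.3% of all adult peaks were adult-only. Of 10 transcription factors of adult fibers 9 had one (33.1% of only 145 peaks), of 18 clock genes 11 (34.3% of 178, with 43 of these 61 peaks at Rora), of 12 genes of fatty acid use 5 (22.1%), and of 15 genes of developing fibers 5 (19.2%).

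Among glycogen genes, Ppp1r3a had 12 adult-only peaks of 23, all on the side of myonuclei, and RNA of 1172 CPM in adult and 513 CPM in P5 myonuclei, and Ppp1r3c, another glycogen-targeting subunit, 8 of 13 and RNA of 133 and 56.0. The Ppp1r3c peak with the palindrome had 21 CPM in myonuclei and 4.14 CPM in other nuclei. Pfkm, the phosphofructokinase of muscle, had 2 of 9 and RNA of 519 and 173. The stronger, chr15:98119129-98120039 in an intron, had 1950 counts in myonuclei and 10 in other nuclei and was graded over Myh4, Myh1 and Myh2 nuclei, with 55.8, 38.3 and 14.3 CPM. Over the list, 7 genes were at least 2-fold higher and 2 lower, with a median log2 ratio of 0.77, against -0.13 for all genes. The highest, Pfkfb3, had RNA of 1091 in adult and 11.5 in P5 myonuclei. It had 1 adult-only peak of 12, on the side of other nuclei. Hk2, 3.63-fold higher, had 0 of 2.

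Of 15 genes of fast fibers 6 (40%) had an adult-only peak, compared with 45.9% of all genes measured, and 13 of their 50 adult peaks (26%) were adult-only, near the 25.3% of all adult peaks. Of these genes 4 were at least 2-fold higher and 2 lower, with a median of 0.69. Pvalb had 4 of 9 and RNA of 706 in adult and 241 in P5 myonuclei, and Mylk2 4 of 9 and RNA of 491 and 157. Mylpf, the fast regulatory light chain, had a peak of 1055 counts and lower RNA, 70.4 and 506. Myh2 had 2 of 3, and one, chr11:67170553-67171456, was highest in Myh2 nuclei, with 1.17 CPM in Myh4, 4.53 CPM in Myh1 and 40.1 CPM in Myh2 nuclei. Myh4 and Myh1 had none by nearest start, and the peak just past the end of Myh4 was counted for Myh8.

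Of the factors of adult fibers 5 were higher and 0 lower, with a median of 0.92. Thrb had 15 adult-only peaks of 25, and its RNA was at 9.98, 11.9, 141 and 1751 CPM in myonuclei over E14.5, E18.5, P5 and adult, 12.4-fold higher than at P5 (11.8 to 13.2). Its strongest, chr14:17674076-17674992, lay 12718 bp from the nearest peak of another library, with 21.1 CPM in myonuclei and 3.73 CPM in other nuclei, and another, chr14:17863474-17864467, had 33.5 CPM in adipocyte-like nuclei. Esr1, the estrogen receptor, had 5 of 21 and RNA of 836 in adult and 137 in P5 myonuclei. Maf had none of 5 and RNA of 706 and 240, so higher RNA also occurred without an adult-only peak.

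Of the clock genes 8 were higher and 2 lower, with a median of 0.74. Dbp had a peak of 2090 counts open in both groups, with 47.4 CPM in myonuclei and 35.9 CPM in other nuclei, and RNA of 47.1 in adult and 3.69 in P5 myonuclei. Bhlhe41, a repressor of the clock, had 3 of 11, the strongest with 35.2 CPM in Myh4, 17.6 CPM in Myh1 and 4.46 CPM in Myh2 nuclei. Per1, Per2 and Per3 had none. The sources used here do not give the hour of collection.

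Of 14 genes of atrophy and FoxO signaling 9 had an adult-only peak (24.4% of peaks), and 8 of 13 measured were higher and 2 lower, with a median of 1.06. Trim63, the ubiquitin ligase MuRF1, had 4 of 8, all on the side of myonuclei, and RNA of 356 in adult and 103 in P5 myonuclei, whereas Fbxo32, the ligase atrogin-1, had none and RNA of 465 and 28.1. Klf15, another target of the glucocorticoid receptor, had 1 peak with 10.0 CPM in myonuclei and 28.6 CPM in other nuclei. Of 15 genes of excitation-contraction coupling 9 had one (30.4% of peaks), and 4 were higher and 2 lower, with a median of -0.11. Cacna1s and Ryr1 had none.

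Genes of fatty acid use had a median of -0.49, with 0 higher and 2 lower. Cd36, the fatty acid transporter, had 7 adult-only peaks of 17 and RNA of 344 in adult and 995 in P5 myonuclei. Its intron peak chr5:17881325-17881857 had 2.43 CPM in Myh4, 22.1 CPM in Myh1 and 22.3 CPM in Myh2 nuclei. All 12 measured genes of developing fibers were at least 2-fold lower in adult than in P5 myonuclei (median -6.02). Those with adult-only peaks were Myh8, Myl4, Igf2, Dlk1 and Myog, the differentiation factor myogenin, which had 5 of 9, with RNA of 1.27 in adult and 11.2 in P5 myonuclei.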

How the data were processed

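The deposited files are raw counts that the authors made with Cell Ranger ARC 2.0.0 on mm10: RNA counts are unique molecules per gene and chromatin counts are transposition cuts per peak, with peaks called in each library alone. Where a peak border falls, and how deep a library is, can therefore decide whether a region is adult-only. There was 1 library per group, and 0 per-sample columns were left unused. Of nonzero adult peak counts 84.5% were even, so intervals were computed on counts divided by 2.

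Nuclei of 400 to 25000 molecules were kept, namely 4829 (E14.5), 4283 (E18.5), 3753 (P5), 5117 (adult) and 3229 (Cacna1s-/-), and doublets were not removed. Adult nuclei were clustered with scanpy 1.11.5 and leidenalg 0.10.2 and classes named from listed markers, with 51 other nuclei left unnamed. CPM are counts of the summed group scaled to a total of 1000000. Ratios have exact conditional binomial intervals (scipy 1.17.1, Python 3.11.15) and a floor of 3 molecules or fragments for zeros. Genes needed 50 molecules over both sums.

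Motifs were read from RefSeq GRCm38.p6, which is the build of the files. The computations were tested on simulated data.

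The members and gene lists were chosen with earlier results of these data known. Named were the 12 peaks with most counts, 8 at each end of the ratio (100 counts or more), the 10 genes nearest to most adult-only peaks (with ties), the 10 highest and 6 lowest RNA ratios in myonuclei and the 6 highest and 4 lowest in other nuclei, with at least 100 molecules and without Gm and Rik symbols, and members of the lists. Alternatives changed the limits on counts, nuclei, distance, windows and core genes, and the assignment of genes.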

Additional observations from a re-analysis of the deposited data

How the results depend on the processing

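Of 51 alternative values, 44 stayed within 1.5 times of the reported one. Counting distance to single transcript starts, an alternative chosen after seeing the data, gave 1063 adult-only peaks within 1000 bp of a start in place of 3137. The limit of 8% of molecules in the core genes, in place of 4%, moved most: 2432 adult-only peaks were at least 2-fold higher in myonuclei in place of 10251 (11.9%, all adult peaks 6.28%), fewer than the 4415 lower, 230 nearest genes were higher in adult than in P5 myonuclei in place of 555 and 139 lower in place of 704, and in other nuclei 223 were higher in place of 365 and 491 lower in place of 260. With that limit nuclei with 4% to 8% counted as other nuclei, and myonuclei held 64.8% of adult peak counts in place of 84.2%. The shares in myonuclei were then 21.9% higher and 13.2% lower for genes near adult-only peaks and 16.9% and 13.6% for all genes. In other nuclei they were 13.2% and 29.2%, against 8.34% and 29.9%. With at least 10 molecules per gene, 1071 nearest genes were lower in adult myonuclei in place of 704. The causes of these moves were not tested. No paired analysis was possible because each group is 1 library. With 1 library per group, no difference has a replicate check, and the other libraries hold no counts in adult-only peaks, so a weak signal there was not detectable from these files.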
